A study of Mus musculus with 54 samples.

Results

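The 6 protein-coding genes of the mouse mitochondrial genome that belong to respiratory complexes III, IV and V were followed through every kidney library that listed them. They are mt-Cytb of complex III, mt-Co1, mt-Co2 and mt-Co3 of complex IV, and mt-Atp6 and mt-Atp8 of complex V. They were taken by name, and make up 6 of the 33126 genes listed in at least 1 library. Of the 54 libraries, 39 listed at least 1 of them and 36 listed all 6. The 36 were 24 droplet single-cell (10x) libraries and 12 bulk RNA-seq libraries, and the 3 bulk libraries of Balb/c male whole kidneys listed mt-Co1, mt-Co3 and mt-Cytb. The remaining 15 libraries, 12 of single nuclei and 3 of Balb/c male cells, listed none of the 6 and are not used here.

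The study compared ways of dissociating and storing kidneys, with 3 libraries in each group. In the first experiment, kidneys of 19-week-old male AFAPIL.1DEL C57BL/6J littermates were dissociated warm, at 37 °C with the Miltenyi Multi Tissue Dissociation Kit 2, or cold, on ice with a protease of Bacillus licheniformis. Each suspension was profiled fresh, after 6 weeks of cryopreservation in a medium with 10% DMSO, or after 3 months of methanol fixation, with 10x chemistry version 2, and in bulk after depletion of ribosomal RNA. In another experiment, kidneys of 15-week-old wild-type Balb/c females, previously used for breeding, were dissociated cold. Their cells were profiled fresh or after 2 weeks of cryopreservation with 10x chemistry version 3, and intact tissue and suspensions were profiled in bulk with a Poly(A) library kit. The Balb/c male whole kidneys, from mice 18 weeks old, were profiled in bulk after depletion of ribosomal RNA. Strain, sex, age, chemistry, library kit, storage time and the spin speed around freezing and thawing changed together between the experiments and cannot be told apart, so groups were tested only within an experiment. The study states 3 mice per experiment, and the sources used here do not say whether a warm and a cold suspension came from the same mouse.

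The respiratory chain of the inner mitochondrial membrane passes electrons from complex I through complexes III and IV to oxygen, and the proton gradient it builds drives ATP synthase, complex V. Most subunits of these complexes are encoded in the nucleus and imported, while a small core is transcribed and translated inside the mitochondrion. Kidney tubules reabsorb salt and solutes against gradients, and the proximal tubule and thick ascending limb are packed with mitochondria for that work. The mitochondrial genome is read as long polycistronic transcripts that are cut, mostly at tRNAs, into mRNAs with short poly(A) tails. mt-Atp8 and mt-Atp6 remain together on 1 bicistronic mRNA, and no tRNA lies between mt-Atp6 and mt-Co3.

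In the GENCODE vM21 models (GRCm38), the 6 genes lie on the plus strand of chromosome M, each as a single exon. mt-Co1, which encodes the catalytic subunit of cytochrome c oxidase, spans chrM:5328-6872 (1545 bases). mt-Co2, which carries the copper centre that accepts electrons from cytochrome c, spans chrM:7013-7696 (684 bases). mt-Atp8, a small membrane subunit of ATP synthase, spans chrM:7766-7969 (204 bases). mt-Atp6, which forms the proton path beside the rotating ring, spans chrM:7927-8607 (681 bases). mt-Co3, a structural core subunit of complex IV, spans chrM:8607-9390 (784 bases). mt-Cytb, which carries the b-type haem groups of complex III, spans chrM:14145-15288 (1144 bases). mt-Atp8 and mt-Atp6 share 43 bases, in different reading frames, and mt-Atp6 and mt-Co3 share 1 base. Reads over shared bases overlap both genes, and how such reads were counted is not given in the sources used here. The whole of mt-Atp8 is shown because its level was above the fresh one in all 5 storage comparisons over whole libraries, with the 43 bases shared with mt-Atp6 in capitals.
mt-Atp8: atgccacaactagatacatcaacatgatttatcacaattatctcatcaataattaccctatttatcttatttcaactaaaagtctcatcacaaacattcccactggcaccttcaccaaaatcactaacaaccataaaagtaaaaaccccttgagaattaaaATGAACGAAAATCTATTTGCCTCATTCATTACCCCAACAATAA

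Copies of mitochondrial DNA in the nuclear genome share sequence with most members. BLAST of the annotated transcripts matched mt-Co2 to the pseudogene Gm28661 with 100% identity over 681 bases (chr1:24614885-24615565, minus strand). mt-Co3 matched Gm28437 with 100% identity over 783 bases (chr1:24613189-24613971, minus strand), and mt-Atp6 matched Gm10925 with 100% identity over 678 bases (chr1:24613974-24614651, minus strand). In mt-Co1, 483 bases matched Gm29216 with 1 mismatch, and all 1545 bases matched Gm13340 on chromosome 2 with 37 mismatches. The closest copy of mt-Cytb reported here, Gm11410, held 81 mismatches over 1142 bases (chr4:80003989-80005131, plus strand). Among the copies reported here, mt-Atp8 matched only over the 43 bases it shares with mt-Atp6. Any matches on a further chromosome were set aside and are not reported here. Between the copies of mt-Co2 and mt-Atp6 on chromosome 1 lie 233 bases, the same distance as on chromosome M. The sequence of those 233 bases was not analysed here.

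To show how alike genes and copies are, a 90-base stretch of 3 members is set beside the copy, in the sense of the gene, with bases that differ in capitals. The stretches start at base 1 of mt-Co2, at base 1063 of mt-Co1 and at base 2 of mt-Cytb. The position printed for Gm11410 is counted back from the end of that plus-strand copy and does not give the place of the stretch. The stretch is bases 2 to 91 of the copy, which starts at chr4:80003989.
mt-Co2 (chrM:7013-7102): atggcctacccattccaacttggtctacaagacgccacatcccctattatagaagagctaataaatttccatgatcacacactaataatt
Gm28661 (chr1:24615476-24615565): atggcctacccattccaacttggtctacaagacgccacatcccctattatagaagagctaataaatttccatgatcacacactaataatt
mt-Co1 (chrM:6390-6479): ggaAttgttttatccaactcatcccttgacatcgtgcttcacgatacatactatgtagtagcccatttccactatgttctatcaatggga
Gm29216 (chr1:24616099-24616188): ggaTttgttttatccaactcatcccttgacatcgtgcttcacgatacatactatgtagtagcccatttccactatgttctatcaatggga
mt-Cytb (chrM:14146-14235): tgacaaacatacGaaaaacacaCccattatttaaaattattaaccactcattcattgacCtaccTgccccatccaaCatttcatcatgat
Gm11410 (chr4:80005041-80005130): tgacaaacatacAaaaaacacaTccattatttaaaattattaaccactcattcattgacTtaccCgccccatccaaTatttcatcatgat
Counted from 1 at the start of the gene, the substitutions are A1066T in mt-Co1, and G14A, C24T, C61T, T66C and C78T in mt-Cytb. No base differs in the mt-Co2 stretch. Over all 150-base windows of a gene, 99.4% of mt-Co2, 99.8% of mt-Co3 and 99.4% of mt-Atp6 occurred letter for letter in an annotated nuclear copy. The same held for 23.6% of mt-Co1 and for 0% of mt-Cytb and mt-Atp8. For mt-Co1 the share depends on the read length. It was 46.5% in windows of 60 bases and 50.6% in windows of 51 bases, the read lengths of the Balb/c female and male bulk libraries.

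In bulk RNA-seq mt-Co1 and mt-Cytb stood apart from the other 4 genes, while in 10x data mt-Atp8 stood far below the other 5. In the C57BL/6J bulk suspensions, read counts per library ranged from 67998 to 77876 for mt-Co1 and from 31621 to 44905 for mt-Cytb. The same libraries held 347 to 410 reads of mt-Co2, 369 to 480 of mt-Co3, 223 to 339 of mt-Atp6 and 0 to 7 of mt-Atp8. The first pair stood far above the other 4 genes in every C57BL/6J bulk library. Intact Balb/c female kidneys showed the same split, with 151819 to 162735 reads of mt-Co1 and 117609 to 128121 of mt-Cytb. There, mt-Co2 had 27 to 45 reads, mt-Co3 34 to 45, mt-Atp6 33 to 36 and mt-Atp8 4 to 8. In the Balb/c male kidneys, mt-Co1 had 8199 to 55491 reads, mt-Cytb 6313 to 49915 and mt-Co3 0 or 1. The genes with few reads were those with near-complete identical copies on chromosome 1, and also mt-Atp8, which has none annotated. How the authors' counting treated reads that match several places is not given in the sources used here, and its part in these counts was not tested.

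Per length, the level of mt-Co1 in cold C57BL/6J bulk suspensions was 7041 CPM per kilobase (CPM, counts scaled to a library total of 1000000), on the mean of 3 libraries, and that of mt-Cytb was 4800. mt-Co3 stood at 80, mt-Co2 at 78, mt-Atp6 at 60 and mt-Atp8 at 2. In the cold fresh 10x libraries of the same experiment the order was different. mt-Co3 was the highest per kilobase, at 87661 CPM per kilobase, counted as UMIs (unique molecular identifiers, 1 per captured RNA), followed by mt-Atp6 at 81938. mt-Cytb stood at 37497, mt-Co1 at 28404, mt-Co2 at 19829 and mt-Atp8 at 2217. The 10x assay counts 3′ ends, so division by length puts long genes lower there than a full-length assay would. mt-Atp8 lies before mt-Atp6 on the mRNA they share. Its 10x values are UMIs assigned to mt-Atp8 and do not measure the amount of that mRNA. In Balb/c female fresh cells the levels in CPM per kilobase were 92771 for mt-Atp6, 89872 for mt-Co3, 73534 for mt-Co2, 33963 for mt-Cytb, 20957 for mt-Co1 and 1222 for mt-Atp8. mt-Co2 thus held different places in the order of the 2 experiments. Its UMIs per 1000 mt-Cytb UMIs ranged from 243 to 450 over the C57BL/6J 10x libraries and from 1278 to 1563 over the Balb/c libraries, with no overlap. The pseudogenes Gm28661, Gm28437 and Gm10925, listed in the bulk tables, held 149 to 170, 301 to 343 and 165 to 208 reads per C57BL/6J bulk library. The members they copy, mt-Co2, mt-Co3 and mt-Atp6, held 347 to 410, 369 to 480 and 223 to 339.

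**Figure D1:**
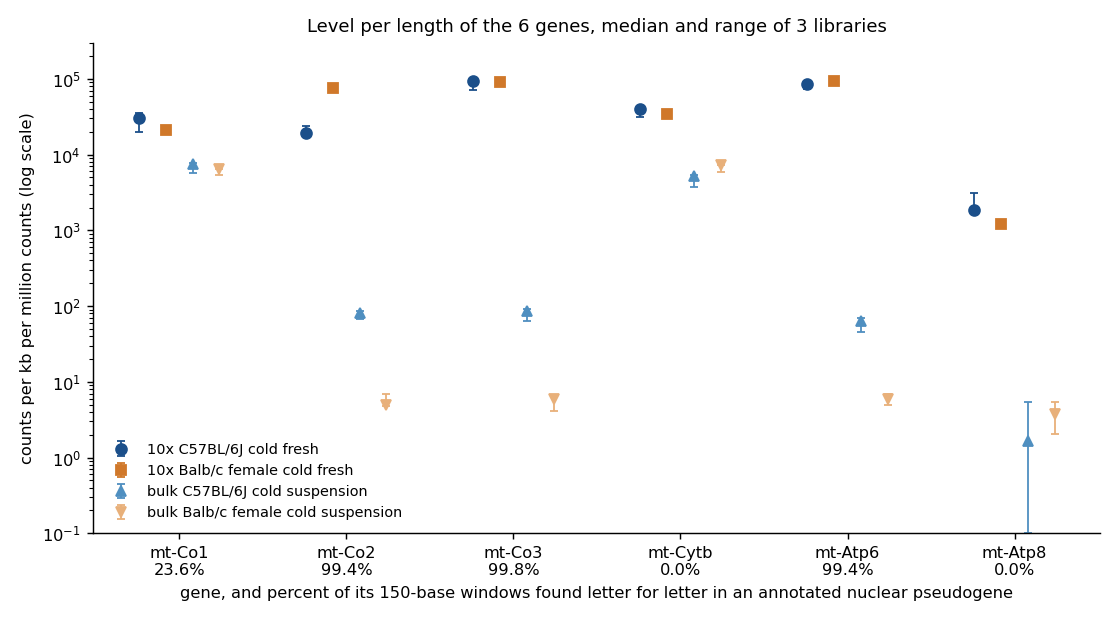
Level of each of the 6 genes in CPM per kilobase of gene model (log axis), for cold fresh 10x libraries and cold bulk suspensions of C57BL/6J and Balb/c females. Points are group medians and bars run from the lowest to the highest library. mt-Co1 and mt-Cytb stand far above the other genes in bulk, while mt-Co3 and mt-Atp6 lead in the 10x libraries. A bar whose lowest library has no mt-Atp8 read ends at 0.1, the bottom of the axis.

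Summed, the 6 genes took between 10.3% and 27.7% of the UMIs of a 10x library and between 0.901% and 1.83% of the reads of a bulk library that listed all 6. Totals ranged from 983522 to 27869324 UMIs per 10x library and from 2326998 to 31093949 reads per bulk library. The study's methods state that cells were kept under a limit of 50% mitochondrial UMIs. The highest share of a deposited cell, as counted here, was between 49.9% and 57.7% per 10x library, so cells far above that limit are not in these shares. Each value is the sum over all cells of a library. In bulk libraries and in such sums, fewer cells of a type and less RNA per cell cannot be told apart.

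**Figure D2:**
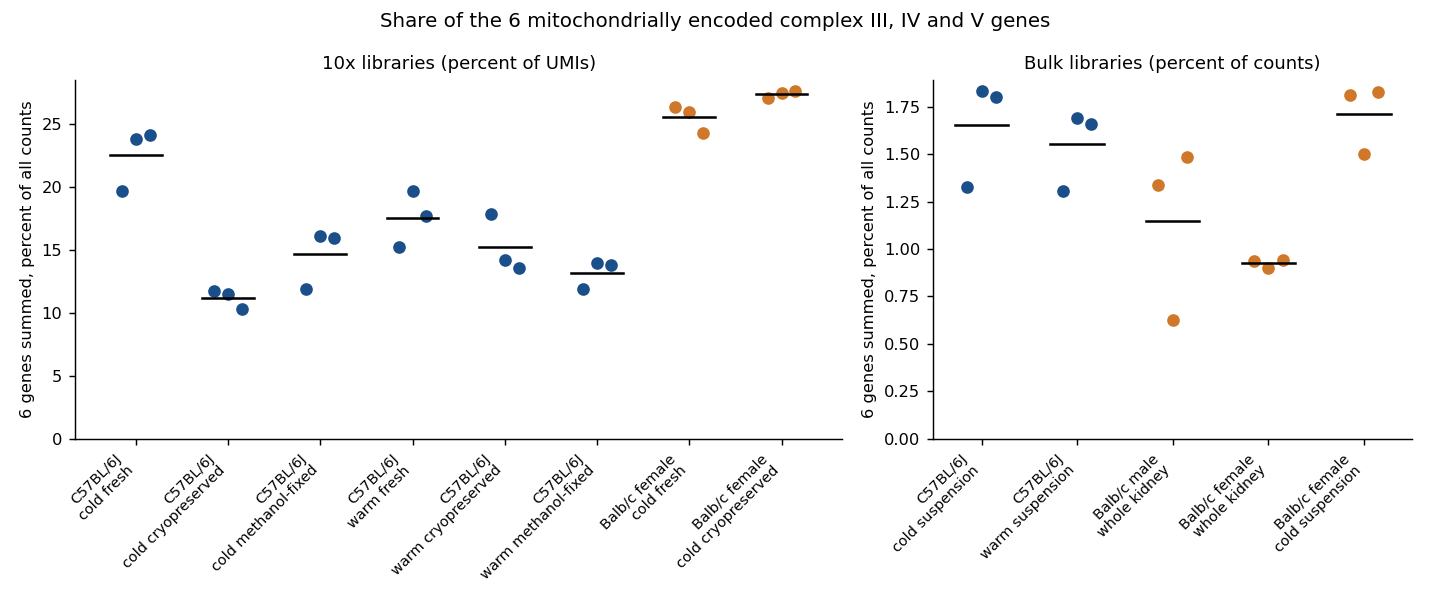
Summed share of the 6 genes in all counts of a library, in percent, with 1 point per library and the mean of each group of 3. The shares lie between 10.3% and 27.7% in 10x libraries and at 1.83% or below in bulk libraries, where the Balb/c male kidneys are summed over the 3 genes they list.

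Warm dissociation was compared with cold to learn how the choice of protocol bears on expression. The protocols differ in temperature, enzyme, handling and spin speed, and these cannot be told apart. In bulk suspensions the 6 genes took 1.31%, 1.69% and 1.66% of reads after warm and 1.33%, 1.83% and 1.80% after cold dissociation, and the groups overlapped. None of the 5 members tested was called in edgeR's quasi-likelihood test, at a Benjamini-Hochberg adjusted p of 0.05, where 8.68% of all genes were. None had an unadjusted p under 0.05 and DESeq2 called none. Their log2 fold changes lay between -0.14 (mt-Co3, SE 0.15) and -0.06 (mt-Co2, SE 0.11).

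In fresh cells the share was 15.2%, 19.7% and 17.7% after warm dissociation and 19.7%, 23.8% and 24.2% after cold. Warm replicate 2 and cold replicate 1 were level at 19.7%, and the groups overlapped. 1 member, mt-Atp6, fell by 0.37 on the log2 scale (SE 0.10, adjusted p = 0.0428), where 14.9% of all genes were called in either direction and 7.07% were lower. Its values were 38766, 41998 and 47137 CPM after warm dissociation and 58020, 59839 and 49540 after cold. The 2 groups of mt-Atp6 values did not overlap. The call was lost when any 1 of the 6 libraries was left out, and also with the replicate number that warm and cold libraries share as a block (adjusted p = 0.0529). mt-Co1 had the larger difference, -0.59 (SE 0.26, adjusted p = 0.151), and wider replicates. mt-Atp8 differed by 0.03 (SE 0.20).

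Within marker-gated cell classes, the calls after warm dissociation were in the proximal tubule gate. A cell was gated into a class by having at least 2 of its 10 markers, and more than of any other class. No cell was tested for being a doublet, and cells tied between classes were left out of all of them. Over 9 classes, 3 of 54 class-gene pairs were called, all lower and all in the proximal tubule, while 51 of the 54 log2 fold changes were below 0. The study itself lists mt-Co1 as higher after cold dissociation in at least 2 cell types. It used a Wilcoxon test over the cells of each type, while the test here takes libraries as replicates. The median of the 6 genes was -0.59 in endothelial cells, -0.55 in the proximal tubule and -0.52 in B cells, and the difference between classes was not tested. With the replicate number as a block, 4 genes in the proximal tubule and 2 in endothelial cells were called lower. Over all genes and classes 4.19% were called, 1.81% as lower, and 4.38% of genes were lower in the proximal tubule. mt-Co1 fell by 0.98 there (SE 0.24, adjusted p = 0.0327), mt-Atp6 fell by 0.71 (SE 0.12, adjusted p = 0.0113) and mt-Co2 fell by 0.47 (SE 0.13, adjusted p = 0.0473). The share of the 6 genes in proximal tubule UMIs was between 14.5% and 18.6% in the warm libraries and between 21.0% and 26.1% in the cold ones, with no overlap. Without cold fresh replicate 1, the lower calls over all classes rose from 3 to 14. That library stood apart, with 8.59% to 11.6% of UMIs from the 6 genes in endothelial cells, phagocytes, T and NK cells and B cells, against 16.0% to 22.8% in the other 2 cold fresh libraries. No nuclear-encoded subunit was called lower over whole libraries. There, 3 of 9 genes of complex III, 3 of 11 of complex IV and 7 of 15 of complex V were called higher. Abundant proximal tubule transcripts (4 of 5 higher, median 0.64) and erythrocyte genes (4 of 5 lower, median -1.42) moved in the same comparison, and their part in it was not tested.

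After cryopreservation the order of warm and cold was the other way round. The share of the 6 genes was 17.9%, 14.2% and 13.6% in warm cryopreserved libraries and 11.7%, 11.5% and 10.3% in cold ones, and the groups did not overlap (exact two-sided permutation test, p = 0.1, the smallest that 3 against 3 allows). mt-Co1 was 42629, 40420 and 38892 CPM after warm and 25630, 30806 and 26056 after cold dissociation, a log2 fold change of 0.66 (SE 0.11, adjusted p = 0.0176). The other 5 members lay between 0.29 and 0.57 and were not called, where 6.67% of all genes were called and 4% as higher. The mt-Co1 call was lost without warm replicate 1, 2 or 3 or cold replicate 3. Within classes 3 of 54 pairs were called higher, mt-Co1 in endothelial cells (0.58, SE 0.16, adjusted p = 0.0298) and mt-Co3 and mt-Cytb in mononuclear phagocytes (0.43 and 0.46), where 5.29% of all pairs were higher, and with total counts none of them was. In methanol-fixed cells none of the 6 was called, with 1.98% of all genes called, none at an unadjusted p under 0.05 and none by DESeq2. The shares there, 11.9%, 14.0% and 13.8% against 11.9%, 16.1% and 16.0%, overlapped. Within classes none of 48 pairs was called, where 2.61% of all pairs were, with 8 at an unadjusted p under 0.05. DESeq2 and the replicate block each called 1 of them lower, and leaving out the filter on low counts or cells under 1000 UMIs called 2 lower, the latter of 30 pairs. The change of the warm-cold difference from fresh to cryopreserved cells was tested as an interaction. It was 1.19 for mt-Co1 (SE 0.35, adjusted p = 0.0651) and 0.76 for mt-Atp6 (SE 0.21, adjusted p = 0.0547), and none of the 6 was called where 6.32% of all genes were. 5 of the 6 had an unadjusted p under 0.05, and DESeq2 called 2. For methanol, none of the 6 was called or had an unadjusted p under 0.05. Over all genes that interaction was called for 0% by edgeR, with 1205 genes at an unadjusted p under 0.05, and DESeq2 called 177.

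After storage, the calls of mt-Atp8 over whole libraries were higher and those of the other 5 genes lower. The fresh libraries are the control of both storage methods, and stored and fresh C57BL/6J libraries of a replicate are aliquots of 1 suspension. Stored cells were profiled later than fresh ones, and methanol-fixed cells were rehydrated in a salt buffer (SSC) and loaded for a lower capture. Storage, handling and time of library preparation cannot be told apart. Reads of 92 or 98 bases are given for chemistry version 2, and which library had which is not given in the sources used here. The study describes the Balb/c cryopreserved and fresh cells as suspension aliquots too. No suspension code links those libraries, so the Balb/c comparison was tested without a block and ignores that pairing. In the 5 storage comparisons mt-Atp8 was above the fresh level by between 0.62 and 1.51 on the log2 scale and was called higher in 4. The other 5 genes were called lower in 14 of 25 gene tests and higher in none. Of all genes, 21.8%, 25.8%, 14.3%, 7.53% and 28.9% were called higher in cold cryopreserved, warm cryopreserved, cold methanol-fixed, warm methanol-fixed and Balb/c cryopreserved libraries. In the same order, 28.9%, 33.9%, 13.6%, 9.77% and 29.1% were called lower.

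mt-Atp8 was at 642, 332 and 383 CPM in cold fresh libraries, at 769, 1089 and 960 after cryopreservation of cold suspensions and at 587, 1090 and 1238 after methanol fixation. Each stored group lay higher in the mean, and methanol replicate 1 fell within the fresh range. The differences were 0.62 (SE 0.25, adjusted p = 0.0719) after cryopreservation and 1.10 (SE 0.32, adjusted p = 0.0315) after methanol. With the suspension as a block the methanol call was lost (adjusted p = 0.0534). Warm fresh libraries held 494, 374 and 500, warm cryopreserved libraries 1157, 1148 and 922, and warm methanol-fixed libraries 1160, 793 and 2147. No warm stored library fell to the fresh level. The differences were 0.84 (SE 0.14, adjusted p = 0.00143) and 1.51 (SE 0.30, adjusted p = 0.0163). The methanol calls of mt-Atp8 rested on few libraries. Leaving out any 1 of the 3 warm fresh libraries lost the warm call, and leaving out cold methanol-fixed replicate 2 or 3 or cold fresh replicate 2 or 3 lost the cold one. In Balb/c females, 258, 245 and 245 in fresh cells stood against 1318, 558 and 468 after cryopreservation. Cryopreserved replicate 1 was the highest, and all 3 were above the fresh libraries. The difference was 1.29 (SE 0.35, adjusted p = 0.0115), and the call held when any 1 of the 6 libraries was left out, at 0.67 without cryopreserved replicate 1.

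Because mt-Atp8 and mt-Atp6 share an mRNA, their UMIs were also compared as a ratio, a measure added after the data were seen. mt-Atp8 UMIs per 1000 mt-Atp6 UMIs were 11.1, 5.55 and 7.73 in cold fresh libraries, 34.4, 54.3 and 51.5 after cryopreservation and 19.5, 27.2 and 33.3 after methanol. For warm suspensions the values were 12.7, 8.90 and 10.6 fresh, 37.5, 47.0 and 41.4 cryopreserved and 40.7, 24.9 and 68.4 methanol-fixed. In Balb/c they were 3.87, 3.87 and 4.12 fresh and 19.2, 7.64 and 6.43 cryopreserved. Stored and fresh libraries did not overlap in any of the 5 comparisons, and the means were 5.76, 3.91, 3.29, 4.16 and 2.80 times the fresh ones, in that order of cold cryopreservation, warm cryopreservation, cold methanol, warm methanol and Balb/c. The exact permutation p was 0.1 in each, the smallest possible. Without Balb/c cryopreserved replicate 1 the Balb/c ratio was 1.78 times the fresh one, and the groups still did not overlap. The ratio does not depend on how libraries are scaled, and it rests on 1396 to 8199 mt-Atp8 UMIs per library. Where on the RNA these UMIs arose was not tested.

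**Figure D3:**
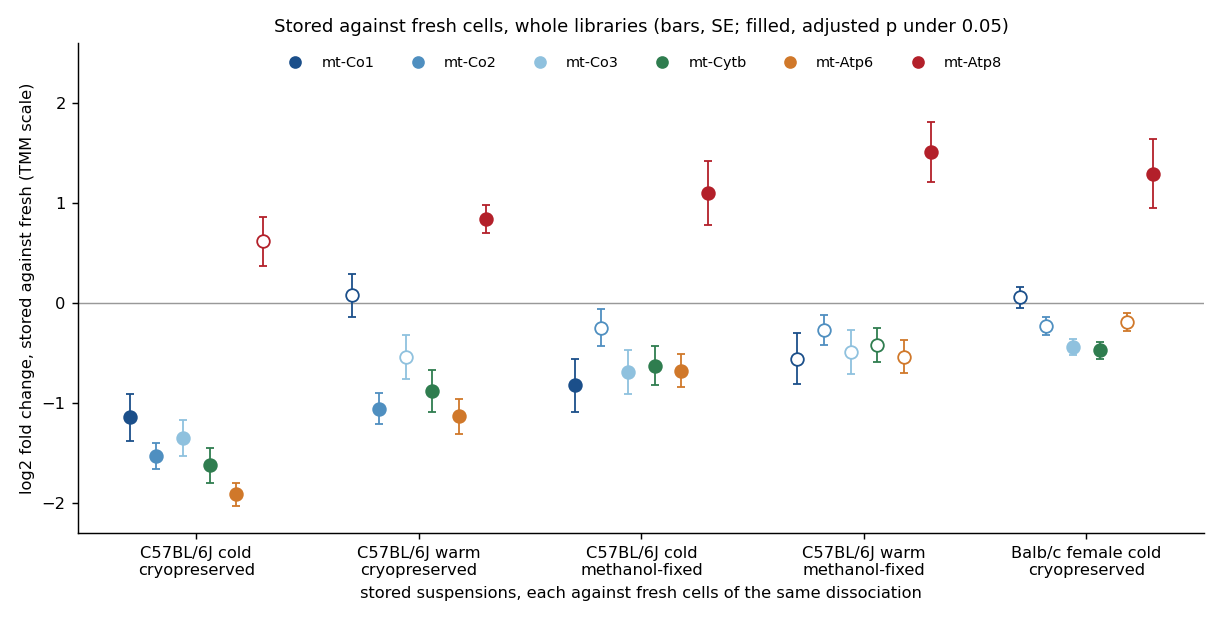
Log2 fold change of each of the 6 genes, stored against fresh, over whole 10x libraries (edgeR, TMM scaling), with standard errors and filled points for an adjusted p under 0.05. mt-Atp8 lies above 0 in all 5 comparisons, from 0.62 to 1.51, while the Balb/c values of mt-Co2 and mt-Atp6 change sign to 0.13 and 0.17 when libraries are scaled by total counts.

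In cold suspensions, cryopreservation lowered all members but mt-Atp8. The share of the 6 genes went from 19.7%, 23.8% and 24.2% in fresh libraries to 11.7%, 11.5% and 10.3%. mt-Atp6 fell by 1.91 (SE 0.12, adjusted p = 2.08e-05), from 58020, 59839 and 49540 CPM to 22322, 20070 and 18653. mt-Cytb fell by 1.62 (SE 0.17, adjusted p = 0.00018) and mt-Co2 fell by 1.53 (SE 0.13, adjusted p = 6.5e-05). mt-Co3 fell by 1.35 (SE 0.18, adjusted p = 0.000526) and mt-Co1 fell by 1.14 (SE 0.24, adjusted p = 0.00492). For mt-Co2, mt-Co3, mt-Cytb and mt-Atp6 every cryopreserved library was below every fresh one, while the highest cryopreserved mt-Co1 (30806 CPM) was level with the lowest fresh one (30797). Of all genes, 50.7% were called, 28.9% as lower and 21.8% as higher. In warm suspensions mt-Atp6 fell by 1.13 (SE 0.18), mt-Co2 fell by 1.05 (SE 0.16) and mt-Cytb fell by 0.88 (SE 0.21). There mt-Co3 was at -0.54 (SE 0.22, adjusted p = 0.0723) and mt-Co1 at 0.08 (SE 0.21, adjusted p = 0.785), where 59.8% of all genes were called, 33.9% as lower. The shares of the 6 genes, 15.2%, 19.7% and 17.7% fresh and 17.9%, 14.2% and 13.6% cryopreserved, overlapped.

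Scaling bears on the size of these values. TMM factors and scaling by total counts put the median gene 0.46 apart in the cold, 0.42 in the warm and 0.36 in the Balb/c cryopreservation comparison, and at most 0.09 apart in the other whole-library comparisons. With total counts the 5 genes of cold suspensions still fell, by 0.67 to 1.46, and mt-Atp8 rose by 1.06. In warm suspensions mt-Co1 became higher by 0.50, with mt-Co2, mt-Cytb and mt-Atp6 still lower. mt-Atp8 was above the fresh level under every scaling tried in all 5 comparisons.

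In Balb/c cells the share of the 6 genes was 26.3%, 26.0% and 24.3% fresh and 27.1%, 27.5% and 27.7% after cryopreservation, with every stored library above every fresh one. Scaled by TMM, mt-Cytb fell by 0.47 (SE 0.09, adjusted p = 0.00168) and mt-Co3 fell by 0.44 (SE 0.08, adjusted p = 0.00196), and mt-Co2, mt-Atp6 and mt-Co1 were at -0.23, -0.19 and 0.06 and were not called. Of all genes 58% were called, 28.9% as higher and 29.1% as lower. With total counts mt-Co1 rose by 0.42 and mt-Atp6 rose by 0.17, and mt-Cytb and mt-Co3 were no longer called.

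After methanol fixation, 4 of the 5 genes were called lower over whole cold libraries, and the calls in warm ones depended on the method. In cold suspensions the share of the 6 genes was 11.9%, 16.1% and 16.0%, below all fresh libraries. mt-Co1 fell by 0.82 (SE 0.27, adjusted p = 0.0471), mt-Co3 fell by 0.69 (SE 0.22, adjusted p = 0.046), mt-Atp6 fell by 0.67 (SE 0.16, adjusted p = 0.0155) and mt-Cytb fell by 0.62 (SE 0.20, adjusted p = 0.0422). mt-Co2 was at -0.25 (SE 0.19). Of all genes 27.9% were called, 13.6% as lower. Without cold fresh replicate 2 none of the 6 was called, and without cold fresh replicate 3 or cold methanol-fixed replicate 1 or 2 mt-Atp6 alone of the lower genes remained. In warm suspensions, 11.9%, 14.0% and 13.8% stood against 15.2%, 19.7% and 17.7% in fresh libraries. The 5 genes lay between -0.56 and -0.27 and were not called, where 17.3% of all genes were. With the suspension as a block all 5 were called lower there, from -0.54 for mt-Co1 (adjusted p = 0.00014) to -0.27 for mt-Co2 (adjusted p = 0.042), and mt-Atp8 stayed higher. Without the block, DESeq2 called mt-Co3, mt-Cytb and mt-Atp6 lower. RLE factors, no filter on low counts, total counts and cells of at least 1000 UMIs each called mt-Atp6 alone of the 5.

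Other genes of the same pathway did not follow the 6 in the same way under both storage methods. After cryopreservation of cold suspensions, 9 of 9 nuclear genes of complex III, 11 of 11 of complex IV and 15 of 15 of complex V were called lower, with medians of -1.60, -1.34 and -1.25. The 7 complex I genes of the mitochondrial genome were called lower too, with a median of -1.27, beside a median of -0.13 over all genes. In Balb/c cells 9 of 9, 10 of 11 and 15 of 15 of the nuclear genes were lower, with medians of -1.09, -1.17 and -1.02, while the members' median was -0.21. After methanol fixation of cold suspensions, in contrast, 7 of 9, 10 of 11 and 10 of 15 nuclear genes were called higher and none lower, with medians of 0.52, 0.42 and 0.43, while 4 of the 6 members and 3 of the 7 mitochondrial complex I genes were lower. Warm suspensions gave 7, 5 and 9 nuclear genes higher and none lower after methanol. The nuclear RNAs Malat1, Neat1 and Kcnq1ot1, kept in the nucleus, were lower in 3 of 3 cases after methanol in both suspensions, with medians of -2.68 and -3.11. The loss of proximal tubule cells moved with cryopreservation. The proximal tubule gate held 1253 to 2670 cells per cold fresh library and 0 to 9 per cold cryopreserved library, and 5 of 5 abundant proximal tubule transcripts were lower by a median of 5.54. In Balb/c the gate held 1809 to 3436 cells fresh and 77 to 135 cryopreserved. Its part in the whole-library values was not tested.

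Within cell classes, mt-Atp8 was above the fresh level in 47 of 47 class comparisons of stored with fresh cells. It was called higher in 40 of them and lower in none. Over all genes and classes, 3.44% were called higher in cold cryopreserved, 5.87% in warm cryopreserved, 10.4% in cold methanol-fixed, 6.69% in warm methanol-fixed and 2.86% in Balb/c cryopreserved cells. By comparison, mt-Atp8 was called in 9 of 10, 8 of 8, 8 of 11, 5 of 8 and 10 of 10 classes. Its largest rise in cryopreserved cells was in intercalated cells, which secrete acid or base, at 2.12 (SE 0.25, adjusted p = 4.87e-05) in cold cryopreserved and 2.83 (SE 0.24, adjusted p = 9.02e-10) in Balb/c cryopreserved cells. In intercalated cells after methanol it was at 0.75 in cold and 0.47 in warm suspensions and was not called. In endothelial cells it was 0.82 and 1.34 after cryopreservation of cold and warm suspensions, 1.18 and 1.38 after methanol and 2.01 in Balb/c. In T and NK cells it was 1.30 after cryopreservation of either suspension, 1.23 after cold methanol fixation and 2.43 in Balb/c, and it stood at 1.38 (adjusted p = 0.0589) after warm methanol fixation. The methanol-fixed cells of most classes carried a median of 1 proximal and 1 distal tubule marker. In endothelial cells the 10 proximal tubule markers took 0.118% of UMIs in cold methanol-fixed and 0.0477% in cold fresh libraries, and the part of RNA from other cells in these values was not tested. Alternatives gave between 34 of 47 calls with DESeq2 and 43 of 47 with total counts, and 32 of 37 C57BL/6J class comparisons with the suspension as a block.

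**Figure D4:**
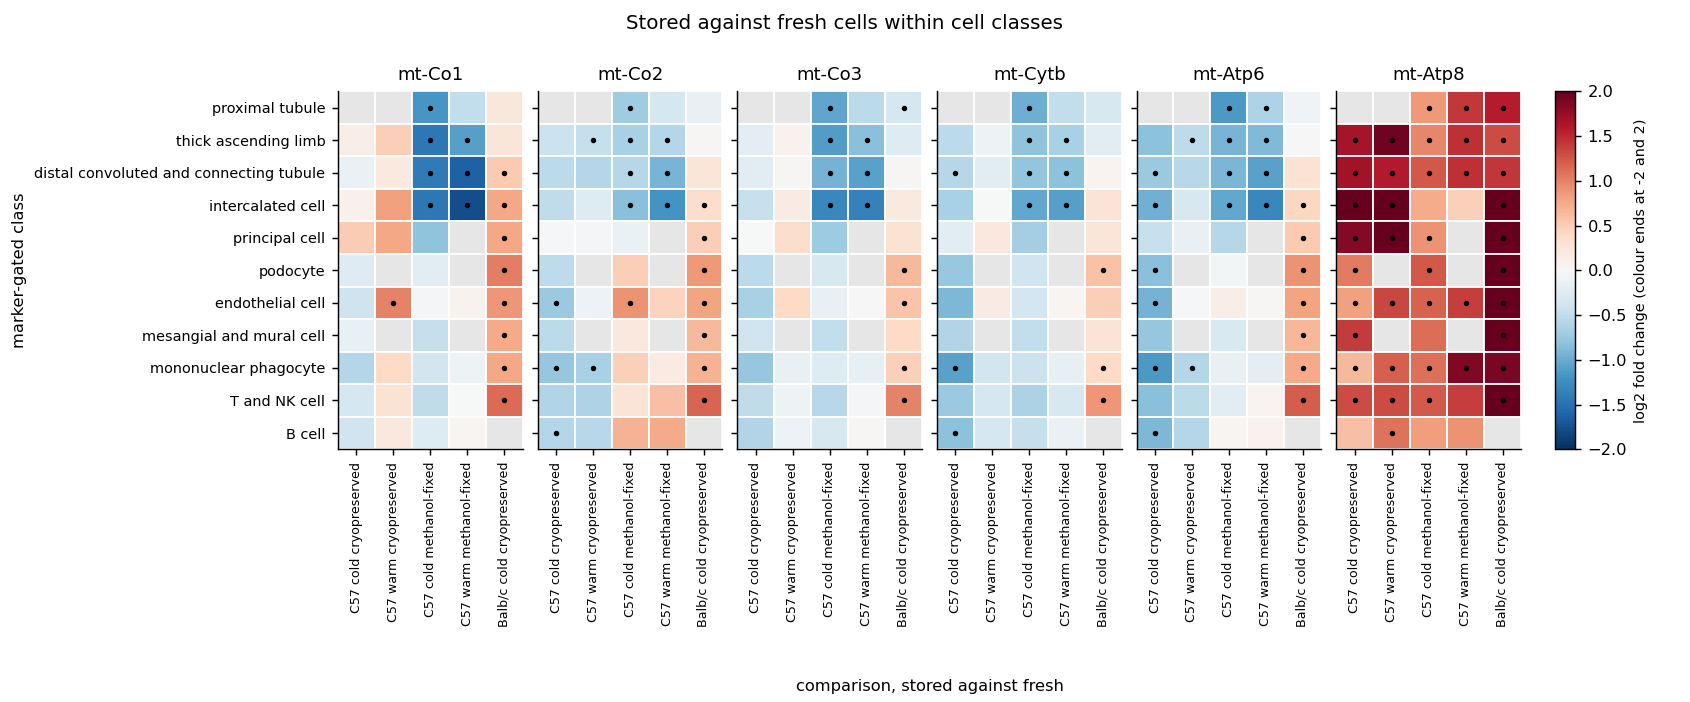
Log2 fold change, stored against fresh, of each of the 6 genes (columns) in each cell class (rows) for the 5 storage comparisons, with dots for an adjusted p under 0.05 and grey for pairs not tested. The mt-Atp8 column is above 0 in 47 of 47 classes, while for the other 5 genes 52 of 185 C57BL/6J pairs were called lower and 29 of 50 Balb/c pairs higher.

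For the other 5 genes the calls within C57BL/6J classes were mostly lower and those within Balb/c classes mostly higher. Over the 4 C57BL/6J storage comparisons, 52 of 185 class-gene pairs of the 5 genes were called lower and 2 higher. With the suspension as a block, 71 were lower and 4 higher. Cryopreserved C57BL/6J cells had 12 lower and 0 higher of 50 pairs in cold and 4 lower and 1 higher of 40 in warm suspensions, and the block raised the 4 to 8, adding 2 in the distal convoluted and connecting tubule and 2 in B cells. The lower pairs were mt-Atp6 in 6 cold classes and 2 warm ones, mt-Co2 in 3 and 2, and mt-Cytb in 3 cold classes. Without the block, 2.8% of all gene-class pairs were called lower in cold and 3.51% in warm cryopreserved cells. The shares of all pairs called with the block are not reported here, so its added calls stand without that background. Without cold fresh replicate 1, the lower calls in cold cryopreserved cells went from 12 to 28, and with cells of at least 1000 UMIs they went to 6 of 45. In mononuclear phagocytes, with 738 gated cells in the cold fresh and 870 in the cold cryopreserved libraries, mt-Atp6 fell by 1.15 (SE 0.20, adjusted p = 0.000875) and mt-Co2 fell by 0.77 (SE 0.17, adjusted p = 0.006) in cold cryopreserved cells. Warm cryopreserved endothelial cells had a higher mt-Co1.

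After methanol fixation, the lower calls of the 5 genes lay in 4 tubule classes. In cold suspensions all 5 were called lower in the proximal tubule, thick ascending limb, distal convoluted and connecting tubule, and intercalated cells, which gives the 20 lower calls of 55 pairs. Over all gene-class pairs 11.3% were lower. In the proximal tubule the falls ran from 0.72 for mt-Co2 (SE 0.15, adjusted p = 0.00512) to 1.18 for mt-Co1 (SE 0.22, adjusted p = 0.00305), and the share of the 6 genes was 11.4% to 15.0%, against 21.0% to 26.1% in fresh cells. In the thick ascending limb, which reabsorbs sodium, potassium and chloride, mt-Co1 fell by 1.44 (SE 0.18, adjusted p = 5.32e-05). mt-Atp8 went the other way in the same cells, at 0.87 (SE 0.26, adjusted p = 0.0304) in the proximal tubule and 0.98 (SE 0.25, adjusted p = 0.0105) in the thick ascending limb. In endothelial cells mt-Co2 rose by 0.89 (SE 0.28, adjusted p = 0.0259), and mt-Co1 was at -0.05. With the suspension as a block the lower calls rose from 20 to 30, adding 4 in principal cells, 4 in mesangial and mural cells and 2 in mononuclear phagocytes. The warm suspensions had 16 lower calls of 40 pairs, in the thick ascending limb, the distal tubule and intercalated cells for all 5 genes and in the proximal tubule for mt-Atp6, where 7.68% of all pairs were lower. With the suspension as a block all 5 genes were called lower in the proximal tubule as well, 20 calls in all.

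In Balb/c cells, 29 of 50 pairs of the 5 genes were called higher after cryopreservation and 1 lower, where 2.86% of all pairs were higher and 4.13% lower. In T and NK cells mt-Atp6 rose by 1.21 (SE 0.09, adjusted p = 2.72e-07), mt-Co2 rose by 1.16 (SE 0.09, adjusted p = 6.71e-07) and mt-Co1 rose by 1.13 (SE 0.11, adjusted p = 2.89e-06). The share of the 6 genes in these cells was between 16.0% and 18.4% in fresh libraries and between 28.5% and 31.0% in cryopreserved ones. In podocytes, the filtering cells of the glomerulus, it was 12.0% to 15.0% fresh and 19.8% to 22.5% cryopreserved, and all 6 genes were called higher. In the thick ascending limb the shares, 27.9% to 31.0% fresh and 27.9% to 32.1% cryopreserved, overlapped, and mt-Atp8 was the only 1 of the 6 genes called. The proximal tubule shares, 26.1% to 27.3% and 26.3% to 30.5%, overlapped too, with mt-Co3 called lower at -0.35 (SE 0.12, adjusted p = 0.0459), and mt-Co1, mt-Co2, mt-Cytb and mt-Atp6 not called. With total counts 26 of the 50 pairs were higher and 0 lower. C57BL/6J and Balb/c differed in strain, sex, age, chemistry, storage time and spin speed, and their difference was not tested.

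**Figure D5:**
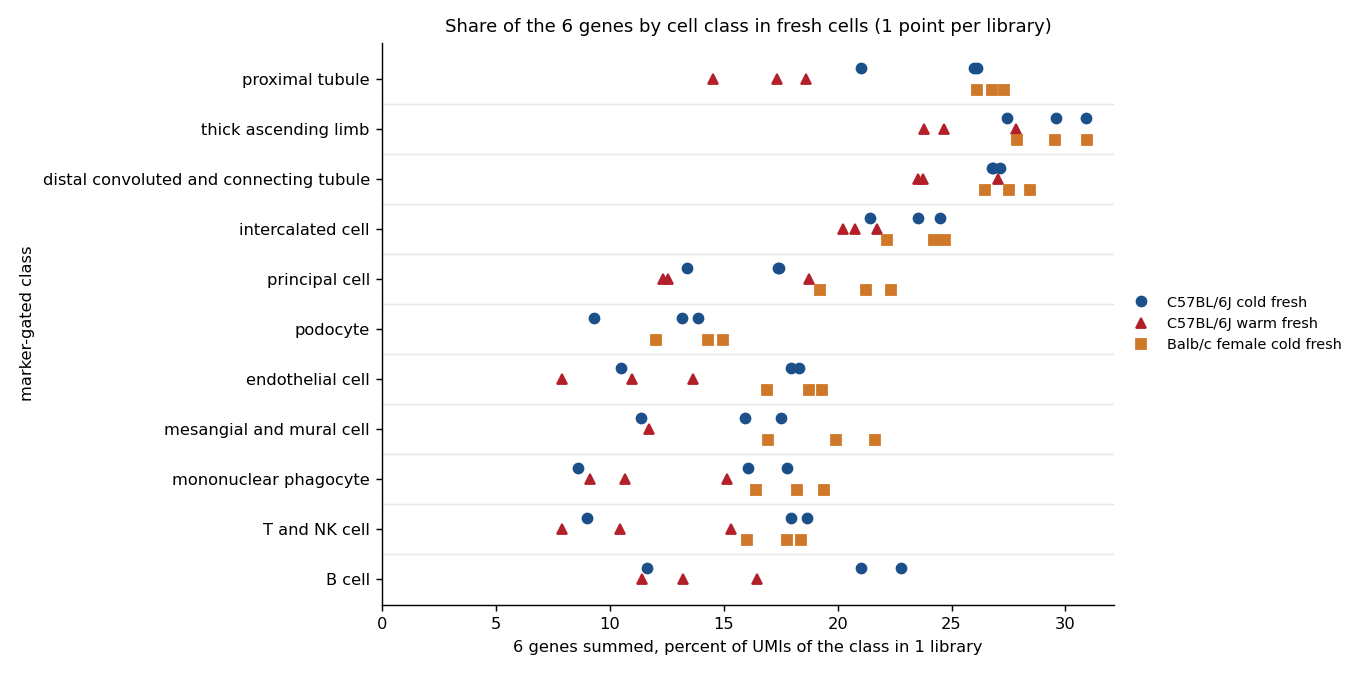
Share of the 6 genes in the UMIs of each marker-gated cell class of fresh cells, in percent. Each point is 1 library holding at least 10 cells of the class, from C57BL/6J cold, C57BL/6J warm or Balb/c female cold suspensions. In C57BL/6J cold fresh libraries the thick ascending limb lies at 27.4% to 30.9%, the proximal tubule at 21.0% to 26.1% and podocytes at 9.28% to 13.9%.

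The cell classes of fresh libraries differed in their levels of the 6 genes. Medians of the 6 genes against the proximal tubule gate, fitted with the library as a block, were lowest for podocytes, at -1.75 in cold C57BL/6J and -1.79 in Balb/c cells. In podocytes all 6 genes were called lower in both groups, but with total counts mt-Atp8 was at -0.25 in cold C57BL/6J podocytes and was not called (adjusted p = 0.171). Principal cells, which reabsorb water and sodium, were at -1.25 in cold and -1.01 in warm C57BL/6J and -1.01 in Balb/c cells. Endothelial cells were at -1.24, -1.42 and -1.33, T and NK cells at -1.19, -1.43 and -1.38, and mononuclear phagocytes at -0.95, -0.96 and -0.91. B cells were at -0.82 in cold and -1.13 in warm C57BL/6J cells. There the median over all genes tested was -0.45 and -0.96, and the B cell shares of the 6 genes, 11.6% to 22.8% cold and 11.4% to 16.4% warm, overlapped those of the proximal tubule. T and NK cells had medians over all genes of -0.33, -0.80 and -0.51. Over the other classes and groups the medians over all genes lay between -0.46 and 0.03. Mesangial and mural cells were at -1.34 in cold C57BL/6J and -1.13 in Balb/c cells. Most genes differ between cell classes, and 49.1%, 51.8% and 54.8% of all gene-class pairs were called in cold C57BL/6J, warm C57BL/6J and Balb/c cells, 26.7%, 31.6% and 29.8% as lower. With total counts the lower calls of the 6 genes over classes went from 45 to 34, from 34 to 20 and from 50 to 41. For mt-Atp8 alone they went from 7 to 0 of 10 classes in cold C57BL/6J, from 7 to 1 of 8 in warm C57BL/6J and stayed at 7 of 9 in Balb/c, so its class differences in C57BL/6J cells depend on the scaling.

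The thick ascending limb and the distal convoluted and connecting tubule stood close to the proximal tubule. In cold C57BL/6J cells their medians were -0.14 and -0.21, and scaling by total counts turned both to 0.15 and 0.03, so that these neighbours in the order are not told apart. The 1 call above the proximal tubule in that group was mt-Co1 in the thick ascending limb, at 0.46 (SE 0.19, adjusted p = 0.0496). It was lost with library sizes from nuclear genes (adjusted p = 0.11), without the filter on low counts (adjusted p = 0.181) and without cold fresh replicate 2 or 3. After warm dissociation mt-Co1 was higher in the thick ascending limb by 0.90 (SE 0.17, adjusted p = 1.08e-05) and in the distal convoluted and connecting tubule by 0.99 (SE 0.17, adjusted p = 1.76e-06). There the medians were 0.34 and 0.26. In all, 3 of the 6 genes were called higher in the thick ascending limb, and 2 higher and 1 lower in the distal class. Per class, 13% to 28.4% of all genes were called higher and 22% to 41.2% lower. In Balb/c cells mt-Co1 was at 0.09 and 0.05 in these classes, and mt-Co2, mt-Co3, mt-Cytb and mt-Atp6 were called lower, between -0.32 and -0.11. With total counts the Balb/c medians of the thick ascending limb and distal tubule, -0.16 and -0.25, turned to 0.14 and 0.02. Intercalated cells were at -0.44 in cold and -0.34 in warm C57BL/6J and -0.75 in Balb/c cells, and total counts turned the first pair to 0.01 and 0.25. The share of the 6 genes in cold fresh C57BL/6J cells was 27.4% to 30.9% in the thick ascending limb, 21.0% to 26.1% in the proximal tubule, 13.4% to 17.4% in principal cells and 9.28% to 13.9% in podocytes.

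In bulk, suspensions were compared with intact tissue. The intact kidneys were flash-frozen before RNA was extracted, while suspension RNA came from cells left after dissociation, straining and spins. Dissociation, freezing and the loss of cells cannot be told apart in this comparison. The 6 genes took 1.81%, 1.50% and 1.83% of reads in cold Balb/c female suspensions and 0.936%, 0.901% and 0.941% in intact kidneys, with no overlap (exact permutation p = 0.1, the smallest possible). All 6 were called higher in the suspensions, where 20% of all genes were called and 7.91% as higher. mt-Cytb rose by 0.92 (SE 0.10, adjusted p = 0.000179) and mt-Co1 rose by 0.84 (SE 0.10, adjusted p = 0.000304). The genes with few reads rose by 1.81 (mt-Atp6, SE 0.18, adjusted p = 0.000136), 1.78 (mt-Co2, SE 0.25, adjusted p = 0.000946), 1.78 (mt-Atp8, SE 0.44, adjusted p = 0.0193) and 1.63 (mt-Co3, SE 0.22, adjusted p = 0.000662). In counts, mt-Co2 had 27 to 45 reads intact and 81 to 105 in suspension, and mt-Atp8 had 4 to 8 and 11 to 24. The mt-Atp8 call was lost without suspension replicate 1 or intact replicate 1 or 2. Reads of Gm28661, the copy of mt-Co2, went from 26 to 38 in intact kidneys to 56 to 70 in suspensions, and reads of Gm11410 from 6 to 10 to 17 to 28. The 5 tested complex I genes of the mitochondrial genome were all higher, with a median of 1.00. Of the nuclear genes, 0 of 9 of complex III, 1 of 11 of complex IV and 2 of 15 of complex V were higher, with medians between 0.07 and 0.09. 5 of 5 erythrocyte genes were higher as well, by a median of 2.39, and their part was not tested.

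Over all 24 10x libraries, the gene nearest to the summed 6 in its pattern, among 11542 genes and by Pearson's r of log2 levels, was mt-Nd4 (0.95), a complex I gene of the mitochondrial genome. Among the members, mt-Co3 had 0.96, mt-Atp6 0.94, mt-Cytb 0.87, mt-Co2 0.86 and mt-Co1 0.67 with the sum they belong to. mt-Atp8 had -0.60. The libraries share experiment, chemistry and depth, so these values describe the libraries and are given with no test.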

How the data were processed

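The authors aligned 10x reads with Cell Ranger 2.1.1 to mm10, called cells with EmptyDrops, and state that they kept genes found in 10 or more cells and cells with 200 to 3000 genes and under 50% mitochondrial UMIs, and removed outliers in UMIs per gene. A doublet step is not given in the sources used here, and none was run. For bulk RNA-seq they trimmed reads with Trim Galore, removed ribosomal reads, aligned with STAR 2.6.1a to GRCm38 and counted with featureCounts. Strand and multi-mapping settings of that count are not given in the sources used here, so antisense reads cannot be told apart. The deposited values are raw counts, as UMIs per gene and cell or reads per gene. A gene left out of a table by the authors' filter has no value there.

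UMIs were summed per library, and per library and marker-gated class (at least 2 of 10 markers, and at least 10 cells in at least 2 libraries of each group). Sums and bulk counts were tested with edgeR 4.0.16 (quasi-likelihood test, TMM, filterByExpr, Benjamini-Hochberg adjustment over all genes tested, threshold 0.05) in R 4.3.3. Shares were compared with an exact two-sided permutation test, and depth, given as total counts, bounds the precision of each. Where a group was tested against another without a block, p-values measure the spread between the libraries of a group. Those of classes against the proximal tubule, of block fits and of interactions rest on the residual spread of the whole fit. Alternatives were DESeq2 1.42.0, edgeR's exact test for bulk, RLE factors, no filter on low counts, library sizes from nuclear genes, cells of at least 1000 UMIs, a stricter gate of 3 markers, and each library left out. A replicate block and scaling by total counts were added after the data were seen. Shares of all genes or pairs called, given in percent, belong to the main fit. For classes, the shares with a block or with a library left out are not reported here. Scripts were tested on simulated data. Sequences are GENCODE vM21 transcripts, compared with BLAST 2.17.0. The named genes are all 6 members, and of other genes counts over fixed lists. Of the genes nearest to the members in pattern, the first is named and the others are not reported here. Members and lists were chosen with earlier results of these data known.

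Stored and fresh C57BL/6J libraries with the same suspension code in the deposited files were aliquots of 1 suspension. Correlations of their deviations from group means were 0.235 to 0.247 for cold methanol, 0.089 to 0.195 for warm methanol, 0.033 to 0.082 for cold cryopreservation and -0.016 to 0.013 for warm cryopreservation. C57BL/6J 10x libraries shared at most 51 cell barcodes, and Balb/c libraries at most 14.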

Additional observations from a re-analysis of the deposited data

Results flagged for a closer look

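A pair of members moved in opposite directions in the cryopreserved cells of the 2 experiments, in every library, when levels were taken as CPM. For mt-Co2, the log2 ratio of the mean stored to the mean fresh level was 0.13 in Balb/c cells, -1.08 in cold C57BL/6J cells and -0.65 in warm C57BL/6J cells. For mt-Atp6 it was 0.18 in Balb/c cells, -1.46 in cold C57BL/6J cells and -0.72 in warm C57BL/6J cells. The difference between the experiments was not tested, and strain, sex, age, chemistry, storage time and spin speed cannot be told apart in it. With TMM scaling the Balb/c values become -0.23 and -0.19, so the opposite direction over whole libraries depends on the scaling.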

How the results depend on the processing

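Medians below are log2 fold changes, over the 6 genes for whole libraries and over all class-gene pairs for classes. With total counts, the cold and warm cryopreservation medians moved from -1.44 to -0.98 and from -0.71 to -0.29, and the Balb/c one changed sign, from -0.21 to 0.151, with mt-Co2 at 0.128 and mt-Atp6 at 0.174. Their construction gives these shifts, since TMM sets the median gene lower. The Balb/c class median moved from 0.615 to 0.494 and its proximal tubule turned to 0.119. The intercalated median of warm cryopreserved cells turned to -0.109. Against the proximal tubule, total counts turned the cold C57BL/6J thick ascending limb, distal and intercalated medians to 0.149, 0.0326 and 0.00958, the warm intercalated one to 0.251 and the Balb/c thick ascending limb and distal ones to 0.143 and 0.0193. DESeq2 and RLE factors turned the cold thick ascending limb to 0.0532 and 0.0528. The stricter gate turned the warm cryopreservation class median from -0.0150 to 0.0734 and the cold methanol endothelial one to -0.0276. Without the filter on low counts and with cells of at least 1000 UMIs, the warm methanol class median, -0.15, became -0.520 and -0.351, its endothelial one turned to -0.154 and -0.152, and the Balb/c thick ascending limb without the filter turned to -0.0528. In warm cryopreserved cells the thick ascending limb turned to 0.00632 (DESeq2) and 0.00636 (RLE), and phagocytes to 0.0654 with at least 1000 UMIs. The methanol interaction of mt-Co2, -0.01, turned to 0.0878 (DESeq2), 0.0877 (RLE), 0.00425 (nuclear genes), 0.00633 (total counts) and 0.0158 (replicate block). Where no construction is named, the cause was not tested. Under these alternatives, 164 main values of comparisons stayed within the replicate spread, 5 moved beyond it and 2 changed sign. Of members over whole libraries, class medians and counts of calls, 1226 stayed, 155 moved and 24 changed sign. Where members over whole libraries kept their sign, calls were lost 5 times and gained 28 times. A call on a changed sign is counted with the sign changes, and calls within classes are not in this tally. With 1 library left out, the same tally gave 185 main values that stayed, 13 that moved and 3 that changed sign. Of the others, 1026 stayed, 116 moved and 46 changed sign, and calls were lost 33 times and gained 12 times.

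Warm and cold C57BL/6J libraries share a number code in the deposited files, and the sources used here do not say that it marks a mouse. They had correlations of deviations of -0.008 to 0.176 fresh, -0.17 to 0.01 cryopreserved and 0.018 to 0.17 methanol-fixed. With that number as a replicate block the fresh median went from -0.268 to -0.265, the mt-Atp6 call was lost (adjusted p = 0.0529), and all genes called went from 673 to 134 in cryopreserved and from 198 to 371 in methanol-fixed cells. Over classes the block gave 6 lower calls in place of 3 in fresh and 5 higher in place of 3 in cryopreserved cells. In the storage comparisons the block gave medians of -1.43, -0.73, -0.66 and -0.44 for cold and warm cryopreservation and cold and warm methanol. It raised the lower calls of the 5 genes over classes from 20 to 30 in cold methanol-fixed and from 4 to 8 in warm cryopreserved cells. All genes called went from 742 to 93 for the cryopreservation interaction and from 0 to 13 for the methanol one. Over whole libraries the block changed no call of a member other than this mt-Atp6 call, mt-Atp8 in cold methanol and the 5 genes in warm methanol. DESeq2 called 4 of the 6 members in place of 1 between warm and cold cryopreserved libraries, with 1222 genes in place of 673, and 601 in place of 198 between methanol-fixed ones. Over classes, leaving out the filter moved all genes called from 1472 to 2608 (cold cryopreserved), from 1606 to 2869 (warm cryopreserved) and from 439 to 733 (methanol, warm against cold), and the lower calls of the 5 genes from 3 to 12 (fresh, warm against cold) from 12 to 21 (cold cryopreserved) and from 4 to 7 (warm cryopreserved). Total counts moved the last to 9. In cryopreserved cells, warm against cold, cells of at least 1000 UMIs or the stricter gate left 1 higher call in place of 3.

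With 1 library left out, medians ranged from 1.47 to 1.85 (suspension against intact), from 0.284 to 0.601 (cryopreserved, warm against cold), from -0.952 to -0.546 (warm cryopreservation), from -0.620 to -0.291 (warm methanol), from -0.292 to -0.186 (Balb/c) and from -0.0487 to 0.290 (methanol interaction). Class medians ranged from -0.136 to 0.208 (warm cryopreservation), from -0.670 to -0.167 (cold methanol), from -0.418 to 0.0840 (warm methanol) and from 0.520 to 0.689 (Balb/c). Members that changed sign were not called in their comparisons. They ranged, in bulk warm against cold, from -0.184 to 0.0287 (mt-Co2), from -0.266 to 0.0574 (mt-Cytb) and from -0.252 to 0.124 (mt-Atp6). Fresh warm against cold gave mt-Atp8 from -0.151 to 0.317, and methanol mt-Co3 from -0.218 to 0.0615 and mt-Cytb from -0.167 to 0.0526. mt-Co1 ranged from -0.109 to 0.331 (warm cryopreservation) and from -0.0367 to 0.109 (Balb/c). In warm cryopreserved cells intercalated cells ranged from -0.0827 to 0.304, phagocytes from -0.437 to 0.0971 and the thick ascending limb from -0.111 to 0.102. Endothelial cells ranged from -0.246 to 0.312 (cold methanol) and from -0.208 to 0.372 (warm methanol), and the Balb/c thick ascending limb from -0.0962 to 0.124. The cryopreservation interaction of mt-Atp8 ranged from -0.0909 to 0.376. The methanol interactions ranged from -0.00770 to 0.499 (mt-Co1), -0.276 to 0.0681 (mt-Co2), -0.0598 to 0.373 (mt-Co3), -0.0376 to 0.359 (mt-Cytb), -0.0923 to 0.239 (mt-Atp6) and -0.0297 to 0.679 (mt-Atp8). Depth limits the bulk counts of mt-Atp8, at most 24 reads per library.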

Other observations

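Among the complex I genes, mt-Nd2 per kilobase stood at 0.0919 to 0.168 of mt-Cytb in C57BL/6J 10x libraries and at 0.577 to 0.715 in Balb/c ones. In bulk the ratio was 0.556 to 0.646 in C57BL/6J suspensions and 0.677 to 0.733 in Balb/c female libraries. mt-Nd4 per kilobase stood at 0.369 to 0.463 of mt-Cytb in cold fresh, 0.417 to 0.445 in cold cryopreserved and 0.291 to 0.307 in cold methanol-fixed libraries, and at 0.388 to 0.431, 0.389 to 0.408 and 0.263 to 0.274 in the warm ones. The methanol-fixed libraries lay below all others of that experiment. These ratios were chosen after their values were seen and were not tested.

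In Balb/c female bulk libraries Gm28438, the copy of the complex I gene mt-Nd3 on chromosome 1, held 293 to 344 reads in intact kidneys and 477 to 547 in suspensions, while mt-Nd3 itself held 0 to 8.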
